A study of Mus musculus with 11 samples.

Results

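The genes of folate transport, one-carbon metabolism, the methionine cycle and serine and glycine metabolism were followed across 4 groups of embryonic mouse neural tissue. The set held 31 listed genes, taken by name. A gene was measured by the probe sets that carry its symbol alone, and among these the probe set with the highest mean over the 11 arrays represented it. Of the 31, 29 had such a probe set, of 18193 genes in all. Amt and Mat2a had no such probe set and have no value here. The 28 members tested were among 13338 genes whose mean log2 signal was at or above 4.3, and Aldh1l1 lay below that filter.

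RNA came from C57BL/6 embryos, and the labels name no genetic change or drug in any group. Embryonic day 8.5 (E8.5) gave 3 arrays of open neuroepithelium and 2 of closed neural tube, and E9.5 gave 3 arrays of each. Every sample was loosened on ice in 2.5% pancreatin and 0.5% trypsin, for 5 min at E8.5 and 8 min at E9.5. Adhering notochord stayed with the tissue, and embryos of a litter were pooled (111 embryos in all), so an array averages over animals. Open tissue lay caudal to closed tissue, so closure and position along the body axis cannot be told apart. Of 12 arrays hybridized, the authors removed 1 closed E8.5 array. From 50 ng of RNA per sample, expression was read on Affymetrix whole-genome mouse arrays, and values are deposited log2 signal. The question was whether the tissue that is about to close and the tissue that has closed differ in these genes.

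Folates carry units of a single carbon between amino acids, nucleotides and methyl groups. Serine and glycine donate most of these units in mitochondria, formate takes them to the cytosol, and there they are used for purines, thymidylate and the remethylation of homocysteine to methionine. Maternal folate lowers the risk of neural tube defects, and mouse embryos that lack Folr1, Mthfd1l or the glycine cleavage enzymes can fail to close the neural tube.

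Markers of cell types were read beside the labels. All 6 neural progenitor markers were above the filter in every group. So were the 4 notochord markers measured and the 5 neural crest markers, so this does not set neural tissue apart. The caudal progenitor markers Nkx1-2, Cdx2, Fgf8, Wnt3a and Evx1 were all lower in closed tissue at both stages. RNA quality differed between arrays. The signal of the 3-prime control probe sets of Gapdh and Actb exceeded that of the 5-prime ones, on the log2 scale, by 2.20 in open E9.5 replicate 1, 2.48 in replicate 2 and 1.14 in replicate 3. In the other groups this excess ran from 1.15 to 1.82. Closed E8.5 replicate 2 had more somite signal than the rest: the log2 of the summed signal of 8 presomitic and somite markers was 9.32 there and 8.05 to 8.50 in the other 10 arrays. The blood sum was 12.26 to 12.81 in open and 11.11 to 12.47 in closed tissue at E9.5, against 7.17 to 9.45 and 9.49 to 9.71 at E8.5. In bulk tissue, fewer cells of a type and less RNA per cell cannot be told apart.

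Between the regions, 1 member passed the threshold, an adjusted p under 0.05 in limma with Benjamini-Hochberg adjustment over all 13338 genes. At E8.5 the folate receptor gene Folr1 was higher in closed tissue, which makes 1 of 28 members, where 7.17% of all genes tested passed (3.79% higher and 3.38% lower). At E9.5, 0 of 28 members passed, where 8.54% of all genes did (2.75% higher and 5.79% lower). Before adjustment, 4 members at E8.5 and 2 at E9.5 had p under 0.05, and so had 14.9% and 19.2% of all genes. The main fit did not pair the regions. With the replicate number as a block, 2 members passed at E9.5, Gldc and Tyms, both lower in closed tissue. A block within each stage was added after seeing the data. With it, 2 members passed at E8.5, Folr1 and Gldc, where 9.99% of all genes did. At E9.5 Gldc, Tyms and Dld passed with it. Shares of all genes under these blocks are not given at E9.5, so those counts are not read as a result about the members.

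The median absolute log2 difference over the 28 was 0.08 at E8.5 and 0.16 at E9.5, against 0.12 and 0.15 over all genes tested. The 95% interval of the difference lay within a 2-fold change in either direction for 27 members at E8.5, all but Folr1, and for 28 at E9.5. It lay within a 1.5-fold change for 20 and 22 members. Of all genes tested, 90.4% and 91.1% had intervals within 2-fold. Arrays of the regions did not overlap for 5 members at E8.5 (17.9%, against 27.5% of all genes). Closed tissue was higher for 2 and lower for 3 of them, where 14.9% and 12.6% of all genes were. At E9.5 the arrays did not overlap for 6 members (21.4%, against 22.5%), 2 higher and 4 lower in closed tissue, where 8.82% and 13.7% of all genes were.

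**Figure D1:**
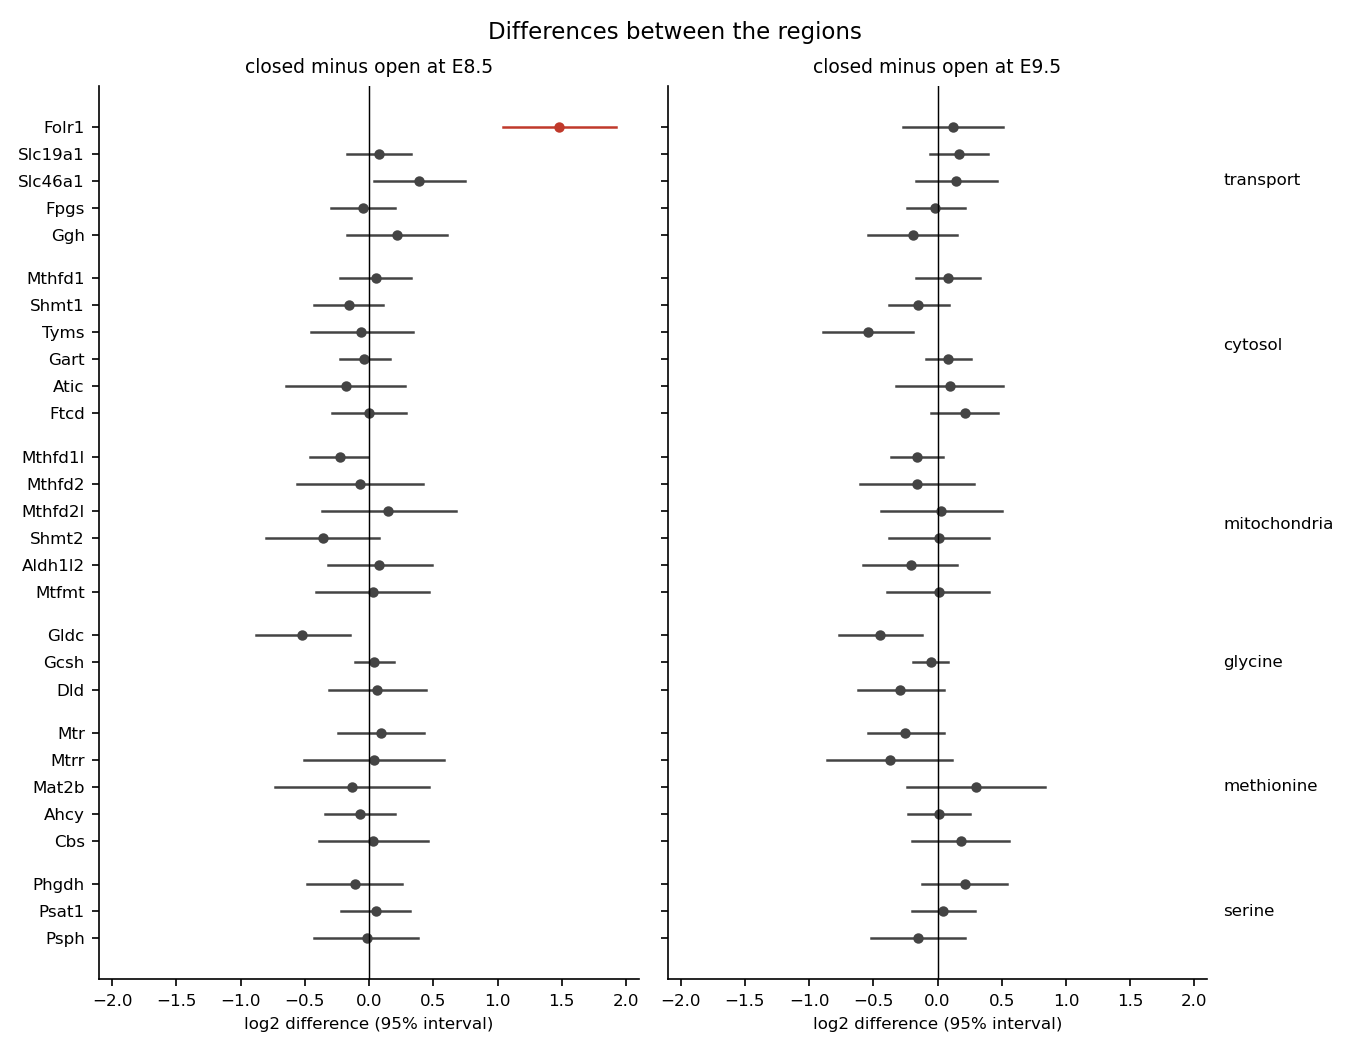
Log2 difference of closed minus open tissue for the 28 tested members, grouped by role, at E8.5 (left) and E9.5 (right). Points are the differences, lines are 95% intervals, and red marks an adjusted p under 0.05; Folr1 at E8.5 stands at 1.48, and the other E8.5 differences lie from -0.52 to 0.39.

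Between the stages, 0 of 28 members passed in open tissue, where 5.02% of all genes tested did (3.61% higher and 1.42% lower at E9.5). In closed tissue 1 member passed, Folr1, which was lower at E9.5, where 2.42% of all genes passed (0.96% higher and 1.46% lower). Before adjustment 6 members in open tissue and 2 in closed tissue had p under 0.05, as had 17.5% and 10.2% of all genes. Intervals lay within a 2-fold change for 27 members in each tissue, all but Mat2b in open and all but Folr1 in closed tissue. Arrays of the stages did not overlap for 7 members in open tissue (25%, against 21.8% of all genes), 3 higher and 4 lower at E9.5, where 12.1% and 9.75% of all genes were. In closed tissue they did not overlap for 6 (21.4%, against 21.2%), 2 higher and 4 lower, where 7.86% and 13.3% of all genes were. Without open E9.5 replicate 3, the array of that group with the lowest 3-prime excess, 2 members passed in open tissue, Mat2b and Cbs, both lower at E9.5. Without replicates 1 and 2, the arrays of highest 3-prime excess, 0 did.

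The interaction asks whether the difference between regions changed between the stages. It passed for 1 of 28 members, Folr1, where 1.25% of all genes tested passed (0.3% with a higher and 0.952% with a lower difference at E9.5). The design was less precise here: the 95% interval lay within a 2-fold change for 24 members, and within 1.5-fold for 10.

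**Figure D2:**
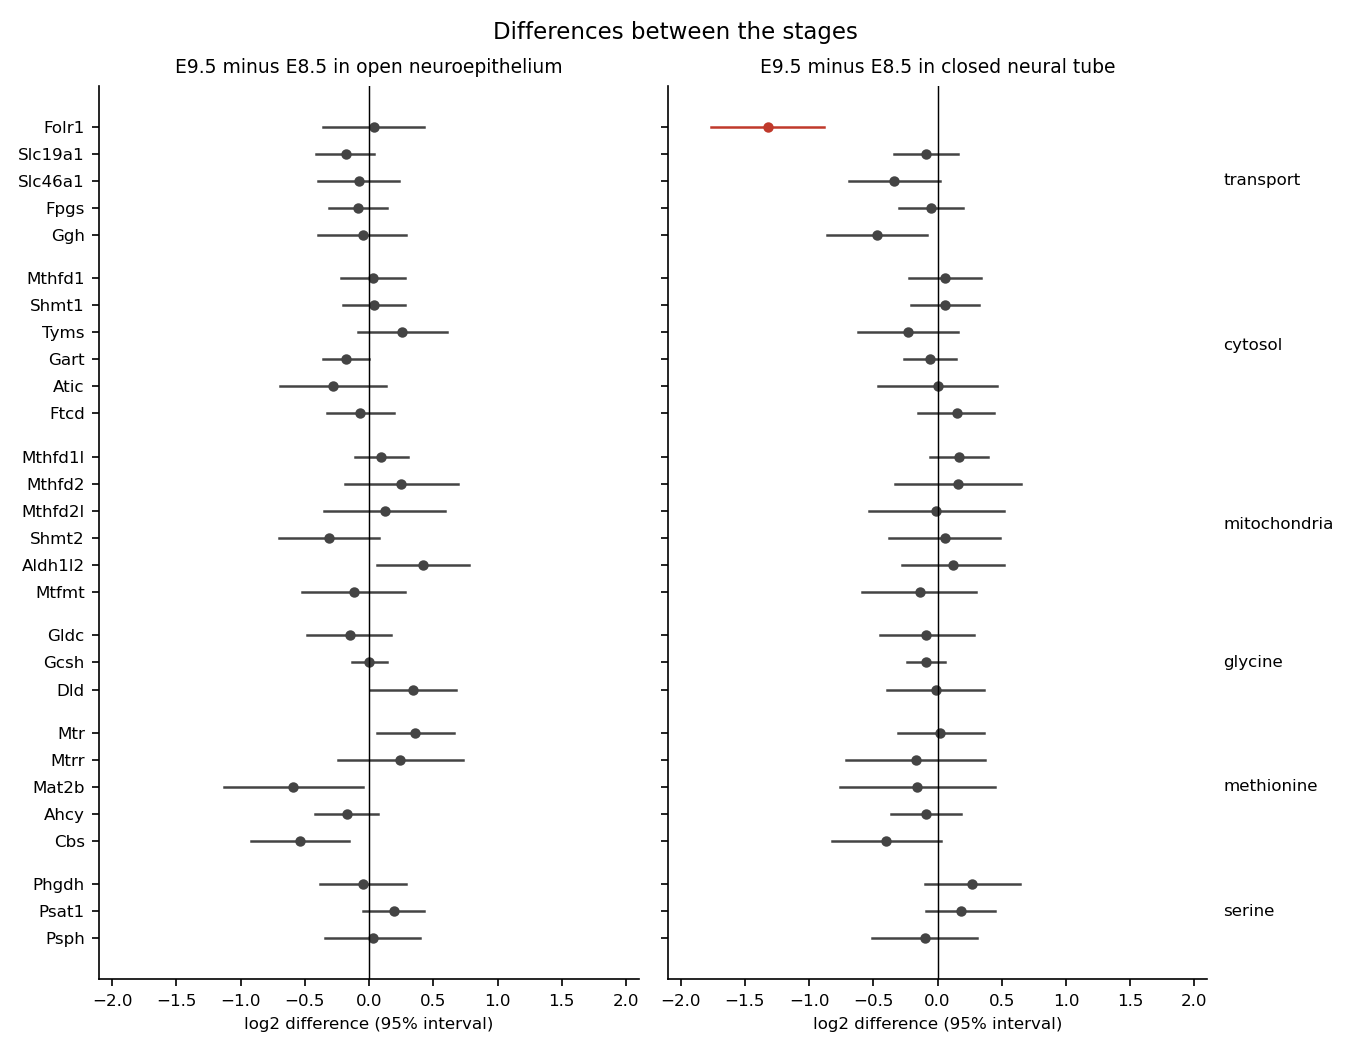
Log2 difference of E9.5 minus E8.5 for the 28 tested members in open neuroepithelium (left) and closed neural tube (right). Points are the differences, lines are 95% intervals and red marks an adjusted p under 0.05; Folr1 in closed tissue stands at -1.32, while Mat2b (-0.59) and Cbs (-0.54) are the lowest in open tissue.

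Folr1 encodes folate receptor alpha, a high-affinity receptor anchored in the cell membrane that takes folate up by endocytosis. Its log2 signal was 5.54, 5.22 and 5.36 in open E8.5 tissue and 6.57 and 7.14 in closed E8.5 tissue. At E9.5 it was 5.39, 5.51 and 5.34 in open tissue and 5.18, 5.78 and 5.63 in closed tissue. Both closed E8.5 arrays thus lay above all 9 others, and the other 3 groups overlapped. Closed exceeded open tissue at E8.5 by 1.48 (SE 0.20, 95% interval 1.04 to 1.92, adjusted p = 0.00058), a 2.79-fold difference, and at E9.5 by 0.12 (SE 0.18, adjusted p = 0.788). From E8.5 to E9.5 the closed tissue fell by 1.32 (SE 0.20, adjusted p = 0.00397), whereas open tissue moved by 0.04 (SE 0.18, adjusted p = 0.938). The interaction was -1.36 (SE 0.27, adjusted p = 0.0368).

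The region difference of Folr1 at E8.5 passed in each of the 11 fits that left out 1 array, from 1.19 without closed E8.5 replicate 2, the array of higher somite signal, to 1.77 without closed E8.5 replicate 1. The stage difference in closed tissue was -1.03 (adjusted p = 0.0419) without closed E8.5 replicate 2, and its adjusted p was 0.0505 when the model held the closed groups alone. The interaction did not pass without closed E8.5 replicate 2 (-1.07, adjusted p = 0.14). Nor did it pass when any array of open E8.5, open E9.5 replicate 1 or 2, or closed E9.5 replicate 1 or 3 was left out, with values from -1.44 to -1.19 and adjusted p from 0.0648 to 0.102. It passed without closed E8.5 replicate 1, open E9.5 replicate 3 or closed E9.5 replicate 2.

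Sums of cell type markers, each the log2 of the summed signal of a list, also differed between the regions at E8.5. The neural progenitor sum was 12.97 to 13.07 in closed and 12.36 to 12.5 in open E8.5 tissue, the direction of Folr1, and it was 12.81 to 12.97 in closed E9.5 tissue, where Folr1 was low. The blood sum (5 of 6 markers measured) was 9.49 to 9.71 in closed and 7.17 to 9.45 in open E8.5 tissue. This too was without overlap and in the direction of Folr1, and the sum was at least 11.11 in every E9.5 array. Single blood markers could overlap at E8.5, as Hbb-bh1 did, at 7.28 and 8.59 in closed and 5.72 to 8.31 in open tissue. The sum of the 5 neural crest markers was 8.74 to 9.31 in closed and 8.32 to 8.64 in open E8.5 tissue. In closed E9.5 tissue it was 9.26 to 9.44. Snai2, in that list, was lower in closed E8.5 tissue, at 7.23 and 7.16 against 7.3 to 7.54 in open tissue. Other sums were opposite in direction to Folr1 at E8.5. The caudal progenitor sum (5 of 6 measured) was 10.89 to 11.15 in closed and 13.2 to 13.38 in open tissue, and 11.26 to 11.38 in closed E9.5 tissue. Gut and visceral endoderm (8 markers) was at 8.44 to 8.49 in closed and 9.25 to 9.71 in open E8.5 tissue. Surface ectoderm was at 9.15 to 9.71 and 10.2 to 10.68. Tfap2a, in that list, went the other way, at 5.8 and 6.62 in closed and 5.15 to 5.57 in open E8.5 tissue. The notochord sum (4 of 5 measured) was 10.41 to 10.74 and 11.02 to 11.35. Shh was the strongest marker in it, and 2 of the 4 markers were higher in closed E8.5 tissue. Foxa2, for example, was 8.06 and 8.65 in closed and 7.47 to 8.04 in open E8.5 tissue. The somite sum was 8.18 in closed E8.5 replicate 1, where Folr1 was 6.57, and 9.32 in replicate 2, where Folr1 was 7.14. The part of these cell types in the Folr1 difference was not tested. Of 5 endothelial markers, 4 lay below the filter in every group.

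**Figure D3:**
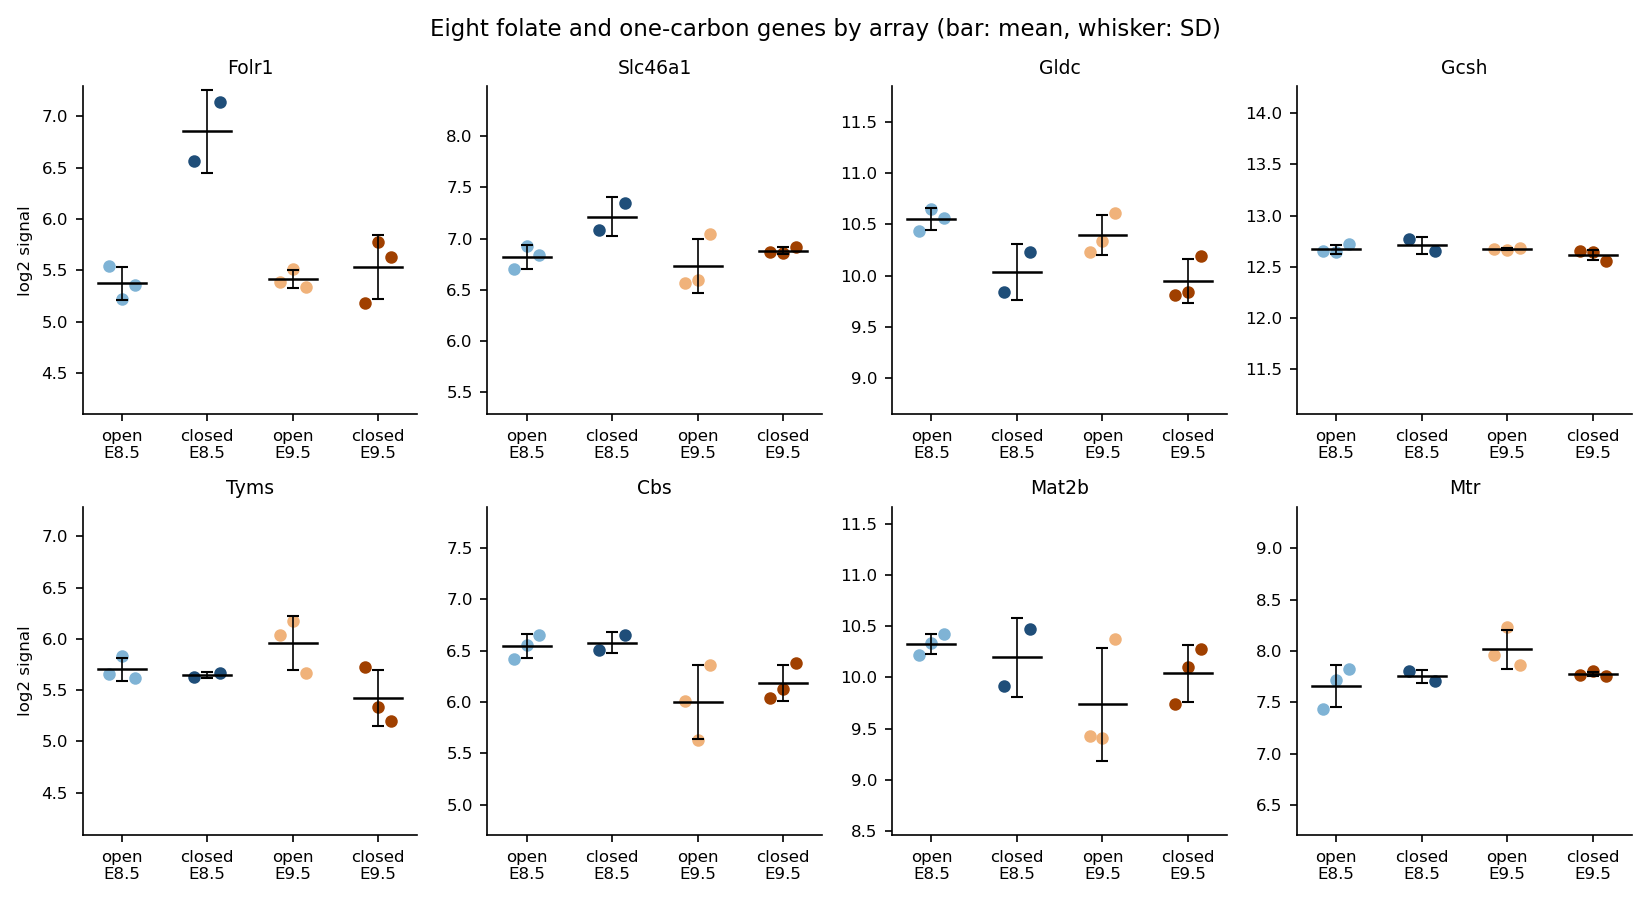
Log2 signal of 8 members (Folr1, Slc46a1, Gldc, Gcsh, Tyms, Cbs, Mat2b and Mtr) in each of the 11 arrays, with points for arrays, bars for group means and whiskers for the SD. All panels span the same number of log2 units; both closed E8.5 arrays of Folr1 (6.57 and 7.14) lie above all others, the closed arrays of Gldc lie below the open ones at each stage, and Gcsh is level.

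The other transport and retention genes did not pass in any comparison. Slc46a1, the proton-coupled folate transporter, was 6.70, 6.93 and 6.84 in open and 7.08 and 7.35 in closed E8.5 tissue. At E9.5 it was 6.57, 6.60 and 7.04 in open and 6.87, 6.86 and 6.92 in closed tissue. The E8.5 arrays did not overlap, with closed tissue higher by 0.39 (SE 0.16, adjusted p = 0.253), and those of E9.5 did (0.14, SE 0.14). Its other probe set had a like order at E8.5, at 6.30 to 6.67 in open and 6.70 and 7.24 in closed tissue.

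Slc19a1, the reduced folate carrier, stayed between 9.04 and 9.44 over all 11 arrays. Its closed E9.5 arrays, at 9.24 to 9.35, lay above the open ones, at 9.04 to 9.18 (0.17, SE 0.10, adjusted p = 0.425). Fpgs, which adds the glutamate tail that keeps folates in the cell, varied by 0.21 over the arrays, from 7.59 to 7.79. Ggh, which removes that tail, was 7.09 and 7.41 in closed E8.5 tissue and 6.93, 6.46 and 6.93 in closed E9.5 tissue. These arrays did not overlap (-0.47, SE 0.18, adjusted p = 0.313).

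No cytosolic enzyme passed on its representative probe set. Mthfd1, which interconverts folate forms between formate and the methylene level, had group means from 11.90 to 12.01. Gart and Atic, enzymes of purine synthesis that consume formyl folate, had group means of 11.65 to 11.83 and 11.16 to 11.44. Gart was 11.77, 11.86 and 11.84 in open E8.5 and 11.65, 11.52 and 11.76 in open E9.5 tissue, without overlap (-0.18, SE 0.08, adjusted p = 0.271). Its probe set 1424435_a_at, named after its values were seen, gave -0.50 for this stage difference (SE 0.16, adjusted p = 0.138), and 0.43 between the regions at E9.5 (SE 0.16, adjusted p = 0.19). Ftcd, which feeds histidine carbon into folates, was low, at 4.66 to 5.06. Aldh1l1, which oxidizes formyl folate in the cytosol, was 3.59 to 3.97 in all arrays, below the filter. Whether so low a signal stands for any transcript cannot be read from these values.

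Tyms encodes thymidylate synthase, which methylates dUMP for DNA synthesis. Its log2 signal was 6.04, 6.17 and 5.67 in open and 5.73, 5.34 and 5.20 in closed E9.5 tissue. At E8.5 it was 5.66, 5.83 and 5.62 in open and 5.63 and 5.67 in closed tissue. The E9.5 groups overlapped by 1 array on each side, closed tissue being lower by a log2 difference of -0.54 (SE 0.16, 95% interval -0.89 to -0.19, adjusted p = 0.0623). With the replicate number as a block the adjusted p was 0.0355. Leaving out open E9.5 replicate 3 gave -0.69 (adjusted p = 0.0158), and leaving out closed E9.5 replicate 1 gave -0.70 (adjusted p = 0.0219). The other 9 fits without 1 array did not pass, with values down to -0.43 (adjusted p = 0.236) without closed E9.5 replicate 3. Without both open E9.5 arrays of highest 3-prime excess it was -0.25 (adjusted p = 0.606), and with that excess as a covariate -0.37 (adjusted p = 0.106). The region difference at E8.5 was -0.06 (SE 0.18), and the interaction, -0.49 (SE 0.24), did not pass (adjusted p = 0.565). The value rests on 1 of 4 probe sets, since the other 3 lay at 3.23 to 4.04 in every array.

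Shmt1, the cytosolic serine hydroxymethyltransferase, gave different answers by probe set. Its representative, 1425179_at, was 9.81, 9.77 and 10.12 in open and 9.73, 9.78 and 9.75 in closed E9.5 tissue (-0.15, SE 0.11, adjusted p = 0.543). The probe set 1425178_s_at was 9.74, 9.71 and 9.54 in open and 9.23, 9.22 and 8.99 in closed E9.5 tissue. Those arrays did not overlap, and with all probe sets tested one by one the difference was -0.52 (SE 0.11, adjusted p = 0.0179). On 1425177_at it was -0.43 (SE 0.15, adjusted p = 0.166), and on 1422198_a_at -0.02 (SE 0.28, adjusted p = 0.988). These probe sets were singled out after their values were seen, and which of them reads the main transcript was not tested.

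None of the 6 mitochondrial folate genes passed. Mthfd1l, the mitochondrial synthetase that releases formate, was 10.12, 10.09 and 10.20 in open and 9.87 and 9.94 in closed E8.5 tissue. At E9.5 it was 10.26, 10.24 and 10.18 in open and 10.05, 10.18 and 9.98 in closed tissue. The closed arrays were the lower ones at both stages without overlap, by a log2 difference of -0.23 (SE 0.10, adjusted p = 0.314) and -0.16 (SE 0.09, adjusted p = 0.403). Both 95% intervals stay within a 1.5-fold change.

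Shmt2, which splits serine in mitochondria, was 10.24, 10.34 and 10.37 in open E8.5 tissue, and 9.66 and 10.25 in closed E8.5 tissue. The difference, -0.36 (SE 0.20, adjusted p = 0.504), came mostly from closed E8.5 replicate 1, whose 3-prime excess of 1.82 was the highest of the E8.5 arrays. Without that array it was -0.06 (adjusted p = 0.91), and with the excess as a covariate -0.25 (adjusted p = 0.312). At E9.5 its difference was 0.01 (SE 0.18). Mthfd2 and Mthfd2l, the mitochondrial dehydrogenases of methylene folate, differed between regions by -0.07 and 0.15 at E8.5 and by -0.16 and 0.03 at E9.5, with SEs of 0.20 to 0.24. Aldh1l2, which oxidizes formyl folate in mitochondria, was 5.31, 5.12 and 5.09 in open E8.5 and 5.34, 5.92 and 5.51 in open E9.5 tissue, without overlap (0.42, SE 0.16, adjusted p = 0.207). Mtfmt, which formylates the initiator methionyl-tRNA of mitochondria, had group means of 6.90 to 7.05.

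The glycine cleavage system breaks glycine down in mitochondria and passes its carbon to folate. Every closed array lay below every open array of its stage for the decarboxylase gene Gldc. The lipoyl carrier gene Gcsh varied by 0.21 over all arrays, though its closed arrays also lay below the open ones at E9.5. The 250 bases before the RefSeq start of each are shown because both subunits belong to a single complex, with matches of the GC box (GGGCGG) and the CCAAT box in capitals on either strand. Both are read 5′ to 3′ along the gene on GRCm38.p6. Gldc is at chr19:30175442-30175691 and Gcsh at chr8:116993499-116993748, both on the minus strand.
Gldc: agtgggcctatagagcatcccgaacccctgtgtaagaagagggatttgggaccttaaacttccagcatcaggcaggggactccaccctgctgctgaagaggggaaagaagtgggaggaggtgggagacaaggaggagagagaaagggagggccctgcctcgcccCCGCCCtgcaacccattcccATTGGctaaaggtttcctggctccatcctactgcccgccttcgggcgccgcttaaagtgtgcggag
Gcsh: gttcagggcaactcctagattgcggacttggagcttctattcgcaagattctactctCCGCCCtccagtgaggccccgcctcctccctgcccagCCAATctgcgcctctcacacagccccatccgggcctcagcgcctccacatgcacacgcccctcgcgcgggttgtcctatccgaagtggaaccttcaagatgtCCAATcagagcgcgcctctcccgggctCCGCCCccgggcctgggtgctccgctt
In the Gldc sequence the GC box begins at -86 and the CCAAT box at -66 from the start, both as reverse complements. In that of Gcsh, GC boxes begin at -193 and -27 and CCAAT boxes at -156 and -54. Both promoters thus hold both motifs, and the matches are letters in a window, not shown binding sites.

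Gldc was 10.44, 10.65 and 10.56 in open and 9.84 and 10.23 in closed E8.5 tissue. At E9.5 it was 10.23, 10.34 and 10.61 in open and 9.81, 9.84 and 10.19 in closed tissue. The regions did not overlap at either stage, although closed E9.5 replicate 3 came within 0.04 of open replicate 1. The differences were -0.52 at E8.5 (SE 0.17, 95% interval -0.88 to -0.15, adjusted p = 0.103) and -0.45 at E9.5 (SE 0.15, 95% interval -0.77 to -0.12, adjusted p = 0.096), so neither passed. With the replicate number as a block the adjusted p at E9.5 was 0.0406, and with a block within each stage, added after seeing the data, it was 0.00641 at E8.5 and 0.00298 at E9.5. With the 3-prime excess as a covariate the differences were -0.43 (adjusted p = 0.0222) and -0.62 (adjusted p = 0.00144). At E8.5 Gldc did not pass with the replicate number as a block. The array of highest 3-prime excess was the lowest of its group for Gldc in 3 of the 4 groups. None of the 11 fits without 1 array passed at either stage. They gave -0.72 to -0.32 at E8.5, and adjusted p from 0.0542 to 0.288 at E9.5. The interaction was 0.07 (SE 0.22, adjusted p = 0.963), and the stage differences were -0.15 (SE 0.15) in open and -0.09 (SE 0.17) in closed tissue.

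Gcsh was 12.65, 12.64 and 12.72 in open and 12.77 and 12.65 in closed E8.5 tissue. It was 12.67, 12.66 and 12.68 in open and 12.65, 12.64 and 12.56 in closed E9.5 tissue, without overlap (-0.05, SE 0.06, adjusted p = 0.719). All 11 arrays lay within 0.21, and the 95% intervals of the region differences ran from -0.11 to 0.19 at E8.5 and from -0.19 to 0.08 at E9.5. Dld, the dehydrogenase that this system shares with the pyruvate and oxoglutarate dehydrogenase complexes, was 10.40, 10.43 and 10.07 in open and 10.03, 10.14 and 9.85 in closed E9.5 tissue. These groups overlapped (-0.29, SE 0.15, adjusted p = 0.353; 0.366 with the replicate block and 0.0391 with the block within each stage). Without both open E9.5 arrays of highest 3-prime excess the value was -0.06 (adjusted p = 0.916), and at E8.5 the difference was 0.06 (SE 0.17).

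In the methionine cycle, 5 members were measured and 0 passed. Mtr, methionine synthase, was 7.43, 7.72 and 7.82 in open E8.5 tissue and 7.96, 8.23 and 7.86 in open E9.5 tissue. The stages did not overlap in open tissue (0.36, SE 0.14, adjusted p = 0.182). In closed tissue Mtr ran from 7.71 to 7.80 over both stages (0.02, SE 0.15). Its partner Mtrr, which reactivates it, differed by -0.37 between the regions at E9.5 (SE 0.22, adjusted p = 0.413), with arrays at 7.18 to 7.76 in open and 6.86 to 7.43 in closed tissue.

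Mat2b, the regulatory subunit of the enzyme that makes S-adenosylmethionine, was 10.22, 10.34 and 10.42 in open E8.5 tissue and 9.43, 9.41 and 10.37 in open E9.5 tissue. Its low values at E9.5 were those of replicates 1 and 2, which had the high 3-prime excess, while replicate 3 stood with the E8.5 arrays. The stage difference was -0.59 (SE 0.25, adjusted p = 0.239), and -0.91 (adjusted p = 0.0102) without replicate 3. Without the same array the region difference at E9.5 went from 0.30 (SE 0.25, adjusted p = 0.579) to 0.62 (adjusted p = 0.0473). Without replicates 1 and 2 the stage difference was 0.05 (adjusted p = 0.959) and the region difference -0.33 (adjusted p = 0.567). With the 3-prime excess as a covariate they were -0.05 (adjusted p = 0.814) and -0.08 (adjusted p = 0.627).

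Cbs, which draws homocysteine into transsulfuration, was 6.42, 6.56 and 6.65 in open E8.5 and 6.01, 5.63 and 6.36 in open E9.5 tissue, without overlap. Closed tissue had 6.51 and 6.65 at the earlier stage, and then 6.04, 6.13 and 6.38, again without overlap. The stage differences were -0.54 (SE 0.17, adjusted p = 0.112) and -0.40 (SE 0.19, adjusted p = 0.55), and without open E9.5 replicate 3 the first was -0.72 (adjusted p = 0.0166). Without open E9.5 replicates 1 and 2 it was -0.18 (adjusted p = 0.76), and with the 3-prime excess as a covariate -0.23 (adjusted p = 0.318). Here too the array of highest 3-prime excess was the lowest of its group in each of the 4 groups. Ahcy, which removes S-adenosylhomocysteine, had group means of 12.62 to 12.79.

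The 3 genes of serine synthesis from glycolysis did not pass in any comparison. Phgdh, the dehydrogenase of its opening step, had group means of 11.39 and 11.28 at E8.5 and of 11.34 and 11.55 at E9.5 in open and closed tissue. Psat1, the aminotransferase, had means of 11.72 at E8.5 and 11.91 at E9.5 in open tissue (0.19, SE 0.11, adjusted p = 0.415). Psph, the phosphatase, had group means of 8.48 to 8.63. Their 95% intervals for the region differences ran from -0.48 to 0.38 at E8.5 and from -0.52 to 0.54 at E9.5.

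For several members that did not pass, the array of highest 3-prime excess lay at an extreme of its group in all 4 groups. The array with the highest 3-prime excess of its group was the lowest of that group in all 4 groups for 5 of 28 members, Shmt1, Atic, Mat2b, Cbs and Mtfmt (17.9%, against 6.97% of all genes tested). It was the highest in all 4 groups for 1 member, Mthfd2 (3.57%, against 4.69%). The median within-group SD was 0.20 for the members and 0.17 for all genes tested.

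Probe sets of a single gene could differ in their order of arrays. For Mthfd2, 1419253_at was 11.31, 11.66 and 10.88 in open E9.5 replicates 1 to 3, whereas 1419254_at was 10.84, 10.29 and 11.06. For Psat1, 1454607_s_at was 11.90, 12.03 and 11.80 in these arrays, and 1451064_a_at was 11.42, 11.28 and 11.98. In both genes replicate 2 was the highest of the group on one probe set and the lowest on the other. Where a gene has a single probe set, as Gldc, Mat2b and Folr1 do, no such check was possible.

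**Figure D4:**
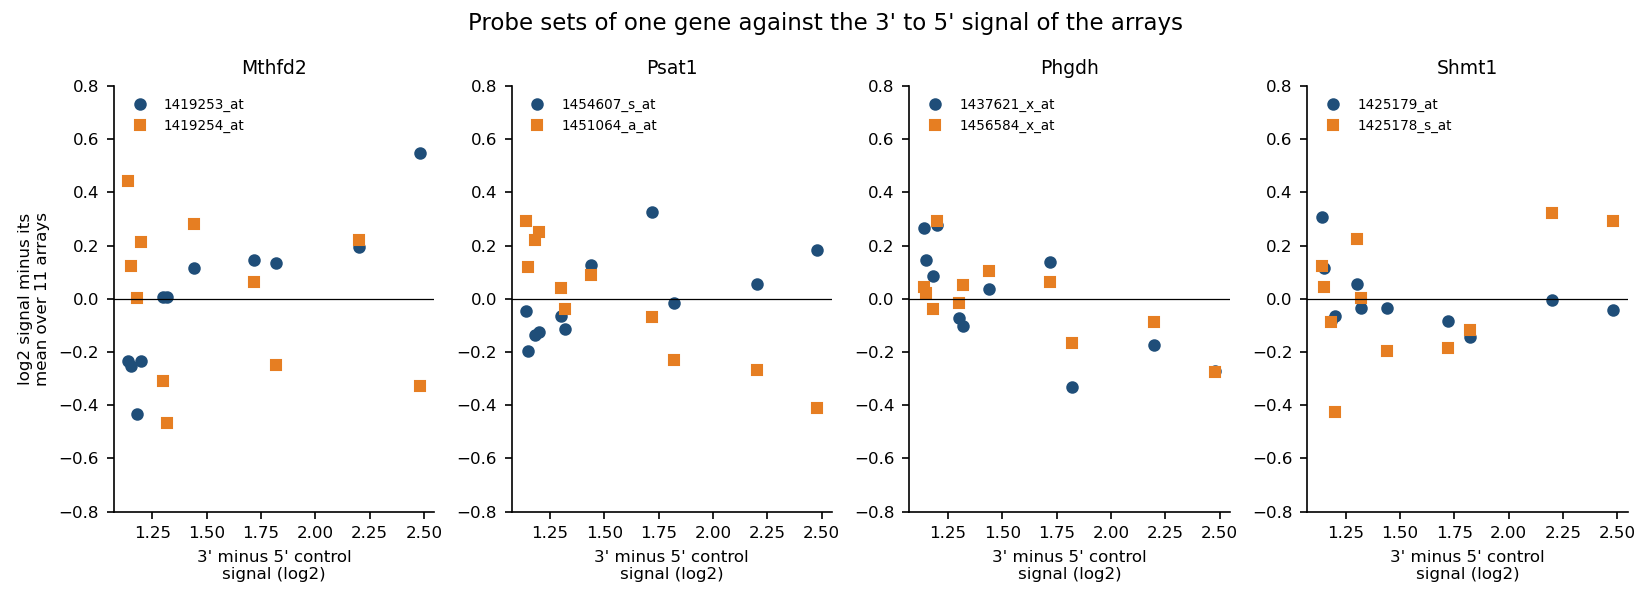
Log2 signal of 2 probe sets each of Mthfd2, Psat1, Phgdh and Shmt1, minus the probe set's mean over 11 arrays, against the 3-prime minus 5-prime control signal of the array. Points are arrays; at the array of 2.48 the probe sets of Mthfd2 and of Psat1 lie on opposite sides of 0, and those of Phgdh lie together.

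Around the pathway, 5 further lists were counted: folate and cobalamin handling (16 of 20 genes tested), purine and pyrimidine synthesis (21 of 22), methyl transfer, polyamine and transsulfuration (20 of 27), amino acid response (19 of 22) and DNA replication (18 of 18). None of the DNA replication genes passed in any of the 5 comparisons, with medians of 0.10 and 0.14 between the regions, where those over all genes were 0.00 and -0.01. In purine and pyrimidine synthesis, Ctps2, a CTP synthase, was the sole gene to pass, lower in closed tissue at E8.5 (-0.59, SE 0.14). All 5 lists were chosen with earlier results of these data known, so the shares passing within them are not a test of the lists.

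In folate and cobalamin handling 2 of 16 genes were lower in closed tissue at E8.5, 4 at E9.5, and 0 were higher, where 3.38% and 5.79% of all genes tested were lower. Abcg2, an efflux pump that can carry folates among other substrates, was 10.59 to 10.75 in open and 9.69 and 9.72 in closed E8.5 tissue. The difference was -0.97 (SE 0.10, adjusted p = 8.18e-05), and at E9.5 it was -0.89 (SE 0.09, adjusted p = 6.09e-05). Dmgdh, which passes carbon from dimethylglycine to folate, differed by -1.52 (SE 0.37, adjusted p = 0.0273) and -1.27 (SE 0.33, adjusted p = 0.0347). At E9.5 Lrp2, an endocytic receptor, and Slc1a4, a neutral amino acid transporter, were both lower in closed tissue. The differences were -1.04 and -1.07 (adjusted p = 0.0295 and 0.021). Slc1a4 was 9.39, 9.22 and 8.52 in open E9.5 replicates 1 to 3, of which replicates 1 and 2 had the highest 3-prime excess. Over the 15 alternatives other than leaving out 1 array, its E9.5 region difference ran from -1.31 to -0.55. Lrp2 was also the gene of this list that was higher at E9.5 than at E8.5 in open tissue (1.07, adjusted p = 0.0392). With both open E9.5 arrays of highest 3-prime excess left out, these Lrp2 differences were -0.29 (adjusted p = 0.57) and 0.32 (adjusted p = 0.624).

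In the methyl transfer list 2 of 20 genes were lower in closed tissue at each stage, the DNA methyltransferase genes Dnmt3b (-0.63 and -0.64) and Dnmt3a (-0.84 and -0.60), and 0 were higher, beside the same 3.38% and 5.79% of all genes. In the amino acid response list, Mycn was higher in closed tissue at E8.5 (0.53, adjusted p = 0.00153; the mean of its probe sets gave 0.31, adjusted p = 0.568). At E9.5 Vldlr was higher (0.94) and the cationic amino acid transporter gene Slc7a3 lower (-0.73) in closed tissue. From E8.5 to E9.5 its relative Slc7a1 was higher in both tissues (1.14 in open and 1.17 in closed), and Slc7a3 lower in both (-0.54 and -1.04). Mycn was also higher at E9.5 in open tissue (0.32). When each array was left out in turn, the calls of Abcg2, Dnmt3b and Slc7a1, of Slc7a3 at E9.5 and in closed tissue, and of Mycn at E8.5 passed in all 11 fits; every other call named for these lists was lost in at least 1.

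The RefSeq promoter windows of the members were searched for CpG and for 6 motifs. Windows on GRCm38.p6, from 250 bases before the start to 50 after it, were at hand for 28 of the 31 listed genes, in 31 windows; Folr1, Ggh and Aldh1l2 were not among them. CpG dinucleotides numbered 3 in the window of Ftcd and 39 in one of Mtrr, with 10 for Gldc and 24 for Gcsh, against a median of 7 over all 32851 windows of 300 bases. A GC box, GGGCGG on either strand, was in 24 of the 31 windows (23 of 28 members), against 35.7% of all windows. A CCAAT box, CCAAT on either strand, was in 21 (20 members), against 37.4%. Windows rich in G and C hold a GC box more readily, and the members were not compared with windows of like composition. TATAAA was in 3 members (13.6% of all windows), the E-box CACGTG in 3 (7.2%) and the NRF1 core GCGCANGC in 6 (10.0%), all on either strand. The amino acid response core TGATGNAA was in 0 (4.0%), which says only that these letters are not in these windows.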

How the data were processed

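The deposited table gave log2 signal of 45101 probe sets on 11 arrays, which the authors made from scanned Affymetrix arrays. The submitters' processing notes name MAS5 with no role or version; background correction, summary and normalization are not given in the sources used here. Deposited log2 values ran from 2.37 to 14.717, with array medians of 4.804 to 4.896, and were used as they were. The number of arrays limits the precision.

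Each of 18193 genes was represented by its one-symbol probe set of highest mean, and the 13338 at or above the 40th percentile of probe set means (4.3) were tested. The 4 group means were fitted with limma 3.58.1 (R 4.3.3; lmFit and eBayes with an intensity trend, 7 residual and 4.4 prior degrees of freedom), with Benjamini-Hochberg adjustment and a threshold of 0.05. The fit was tested on simulated data. Levels of different probe sets were not compared.

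The members and the gene lists were chosen with earlier results of these data known. All members are named, and of the other lists the 2 genes of smallest p in each direction among those past the threshold. The E9.5 region values of Lrp2 and Dmgdh lie outside that rule and were added after they were seen.

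Whether replicate numbers pair arrays was judged from their deviations from group means, correlated over genes. Arrays of like number in the regions had r of 0.308, 0.341 and 0.687 at E9.5, where unlike numbers reached 0.317. At E8.5 like numbers had 0.576 and 0.697. The 2 closed E8.5 arrays deviate oppositely by construction, so unlike numbers mirror these values (-0.576 and -0.697). The labels name no shared litter, and whether litters or RNA quality gave these r was not tested. Pairing of the regions was thus not established, and the main fit held none. It entered only through the replicate block, which also links the stages, and the block within each stage. Stages were not paired (r down to -0.529).

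Alternatives covered normalization (quantile, median), the filter (none, 60th percentile), the probe set (mean of a gene's, each singly), the variance model (no trend, robust), array weights, only the groups compared, the replicate block, the 3-prime minus 5-prime signal as a covariate, each array left out in turn, and both open E9.5 arrays of highest such signal left out. A block within each stage and the main residual component as a covariate were added after seeing the data.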

Additional observations from a re-analysis of the deposited data

Results flagged for a closer look

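The difference of Folr1 between closed and open tissue changed from E8.5 to E9.5 by -1.36 (log2, SE 0.27, limma adjusted p = 0.0368), from 1.48 to 0.12. Both closed E8.5 arrays stood above the 9 others, and in 8 of the 11 fits that left out 1 array the interaction did not pass.

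Mycn, a growth regulator in the amino acid response list, also differed between the stages: its region difference changed by -0.54 (adjusted p = 0.0391). It did not pass in 10 of the 11 fits without 1 array, with adjusted p up to 0.124, and the mean of its probe sets gave -0.20.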

How the results depend on the processing

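Of 3546 single values of members under other settings, 3489 kept their side of the threshold, 46 came to pass and 11 no longer passed; 200 turned sign, of which 0 passed in either fit. Folr1 at E8.5 passed in all settings run. Of these, the stricter filter, at a mean log2 signal of 5.65, adds no separate support. The Folr1 mean over all arrays, 5.7, cleared it only through the closed E8.5 arrays (mean 6.85). Its means were 5.38 in open E8.5, 5.41 in open E9.5 and 5.53 in closed E9.5 tissue. With the 3-prime excess as a covariate, 3 members passed between regions at E8.5 (Folr1 and Slc46a1 higher, Gldc lower), where 11.4% of all genes did. At E9.5, 1 member passed with it. The replicate block gave 2 at E9.5 and changed no other call of a member. A block within each stage gave 2 at E8.5 (Folr1, Gldc), where 9.99% of all genes passed, and 3 at E9.5 (Gldc, Tyms, Dld). Median centring gave 1 at E9.5. Array weights gave 5 at E9.5 and 9 between stages in open tissue, with weights from 0.31 for open E9.5 replicate 3 to 6.29 for replicate 1. The residual component, 61.7% of residual variance, gave 4 at E8.5, where 13.9% of all genes passed, and 4 at E9.5. It gave 8 between stages in open and 2 in closed tissue, and 2 for the interaction. With only the groups compared, 0 passed between stages in closed tissue. For the interaction, probe sets one by one gave 0, as did leaving out both open E9.5 arrays of highest 3-prime excess. With 1 array left out, the counts ran from 1 to 1 at E8.5, from 0 to 2 at E9.5, from 0 to 2 between stages in open and 1 to 1 in closed tissue, and from 0 to 1 for the interaction. The cause of these changes was not tested. Shares of all genes under the same setting are given for E8.5 alone, so the other counts are not read as a result about the members. Over all genes, the counts of 957, 1139, 670, 323 and 167 also moved by over 1.5 times. They rose to 1849, 3424, 4301, 1005 and 862 and, in the last 4 comparisons, fell to 603, 182, 150 and 72. Without open E9.5 replicate 3 the stage count in open tissue was 1262. Of 539 values of genes of the other lists, 102 no longer passed and 0 reversed. Leaving out 1 of the closed E8.5 pair, or the open E9.5 pair of highest 3-prime excess, leaves a lone array in that group, assumed to vary like the others.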
